A study of Mus musculus with 45 samples.

Results

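Srebf2, Insig1, Hmgcs1, Idi1, Fdft1, Sqle, Lss and Cyp51 are genes of cholesterol synthesis, taken as a set by name. They are 8 of the 55401 genes in the count tables, and all 8 passed the filter on low counts in both sexes. They were measured in 45 mouse kidneys by translating ribosome affinity purification (TRAP) RNASeq, which sequences the mRNA bound to tagged ribosomes. Every mouse carried Pax8rtTA and TetOCre, which together switch on Cre recombinase in the tubule epithelium of the nephron when doxycycline is given, and R26Rpl10a, a Cre-dependent ribosomal protein fused to EGFP. Noncystic controls were Pkd1fl/+ and so could lose 1 copy of Pkd1, the gene of polycystin-1. Pkd1KO mice were Pkd1fl/fl, and Pkd1KO+ciliaKO mice were Pkd1fl/fl; Kif3afl/fl and so also lost a motor subunit needed for the primary cilium. Doxycycline was given to all of them from P28 to P42, controls included, and kidneys were taken at P49, at 7 weeks of age. Males numbered 8 noncystic, 7 Pkd1KO and 9 Pkd1KO+ciliaKO, and females 7, 8 and 6 in the same order. The labels give each library as 1 mouse, so that p-values measure the spread between these mice.

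Cells make cholesterol from acetyl-CoA through mevalonate, isoprenoids, squalene and lanosterol, and the enzymes of this route are transcribed under the control of SREBP2, the product of Srebf2. When sterols are plentiful, the Insig1 protein holds the SREBP2 precursor and its escort Scap in the endoplasmic reticulum, and when sterols are scarce the precursor travels to the Golgi, is cut, and its free part enters the nucleus to bind sterol regulatory elements in promoters. Kidney tubule cells, like most cells, can both make cholesterol and take it up in lipoproteins.

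The promoters were searched for the letters of sterol regulatory elements because these sites are how the genes are known to be controlled together. RefSeq promoters on GRCm38.p6, running from 250 bases before to 50 bases after the start, were available for 6 of the 8 genes, all but Fdft1 and Sqle. On both strands, TCACNCCAC occurred in the promoter of Hmgcs1 and in none of the other 5, against 1.24% of 32851 mouse promoters. A shorter form, TCACCNCA, chosen after the sequences were seen and overlapping the first in Hmgcs1, occurred in Hmgcs1, Srebf2 and Cyp51, against 4.42% of all promoters. The 3 matches are shown with 20 bases on each side, read 5′ to 3′ on the strand of the gene, with the match in capitals.
Hmgcs1, chr13:119690194-119690242, plus strand: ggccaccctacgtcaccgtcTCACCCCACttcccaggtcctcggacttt
Srebf2, chr15:82147087-82147134, plus strand: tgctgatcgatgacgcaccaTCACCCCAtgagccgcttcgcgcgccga
Cyp51, chr5:4104758-4104805, minus strand: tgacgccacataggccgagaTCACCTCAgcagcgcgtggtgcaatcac
The first base of the match lay 137 bases upstream of the RefSeq start in Hmgcs1, 162 in Srebf2 and 88 in Cyp51. The gene coordinates given below begin at other bases, so that these distances hold for the RefSeq starts only. CCAAT and GGGCGG, the letters bound by NF-Y and Sp1, were in all 6 promoters, against 37.4% and 35.7% of all promoters. Among 34 other genes of the cholesterol and fatty acid pathways with a promoter sequence, the shorter sterol element was found in 2, Hsd17b7 and Apoe, and the longer in none. A match describes these letters in this window and is not a measure of binding.

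Each library held 80874556 to 132958186 fragments counted in genes. Levels of 1 gene are given as CPM, counts scaled by library size with TMM over all 45 mice, and levels of different genes as TPM, which also divide by gene length. Kif3a, the deleted cilia gene, checked the Pkd1KO+ciliaKO labels against the others. It lay at 4.90 to 7.45 CPM in the male Pkd1KO+ciliaKO mice against 13.8 to 29.2 in the other males. In females the library labelled noncystic 5 had 6.69 CPM and the library labelled Pkd1KO+ciliaKO 6 had 20.7, each against its label. Kif3a cannot tell Pkd1KO from noncystic mice. Pkd1 itself overlapped between them, at 33.2 to 49.8 and 36.3 to 84.9 CPM in males. In females it was at 33.4 to 60.3 in Pkd1KO and 45.2 to 63.5 in noncystic mice. That part of the labels was therefore not checked. On the first principal component, 4 males (noncystic 3, Pkd1KO 4, and Pkd1KO+ciliaKO 6 and 8) lay apart from the other 20, at -30.2 to -1.13 against 14.4 to 40.3, with females at -38.4 to -12.9. Some results that rest on these 6 libraries are given with and without them, and for others the alternative settings include their removal. Proximal tubule markers were abundant in every group, while markers of the adrenal cortex, which makes steroids from cholesterol, summed to at most 5.45 CPM, and Cyp11b2 had at most 3 counts in every mouse.

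Per unit of length, Hmgcs1 was the most abundant of the genes in males, with group medians of 238 to 419.7 TPM, and Cyp51 followed. In females the medians of Hmgcs1, 183 to 230.5 TPM, and of Cyp51, 143 to 206 TPM, were interleaved. Srebf2 followed with medians of 39.9 to 48.6 TPM, then Sqle with 24.0 to 46.8, Insig1 with 26.2 to 36.9 and Fdft1 with 19.6 to 31.8. Idi1, with 7.21 to 16.5 TPM, and Lss, with 5.07 to 6.19, were the least abundant. The lowest count of any of them in any mouse was 528 fragments, for Idi1, so that all were measured far above the limit of detection. Between the 6 groups the highest median CPM was 1.09 times the lowest for Srebf2 and 1.20 times for Lss, but 1.98 times for Cyp51, 2.07 times for Sqle, 2.32 times for Hmgcs1 and 2.80 times for Idi1. Srebf2 had the smallest ratio of the 8 genes, and Idi1, Hmgcs1, Sqle and Cyp51 the 4 largest.

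**Figure D1:**
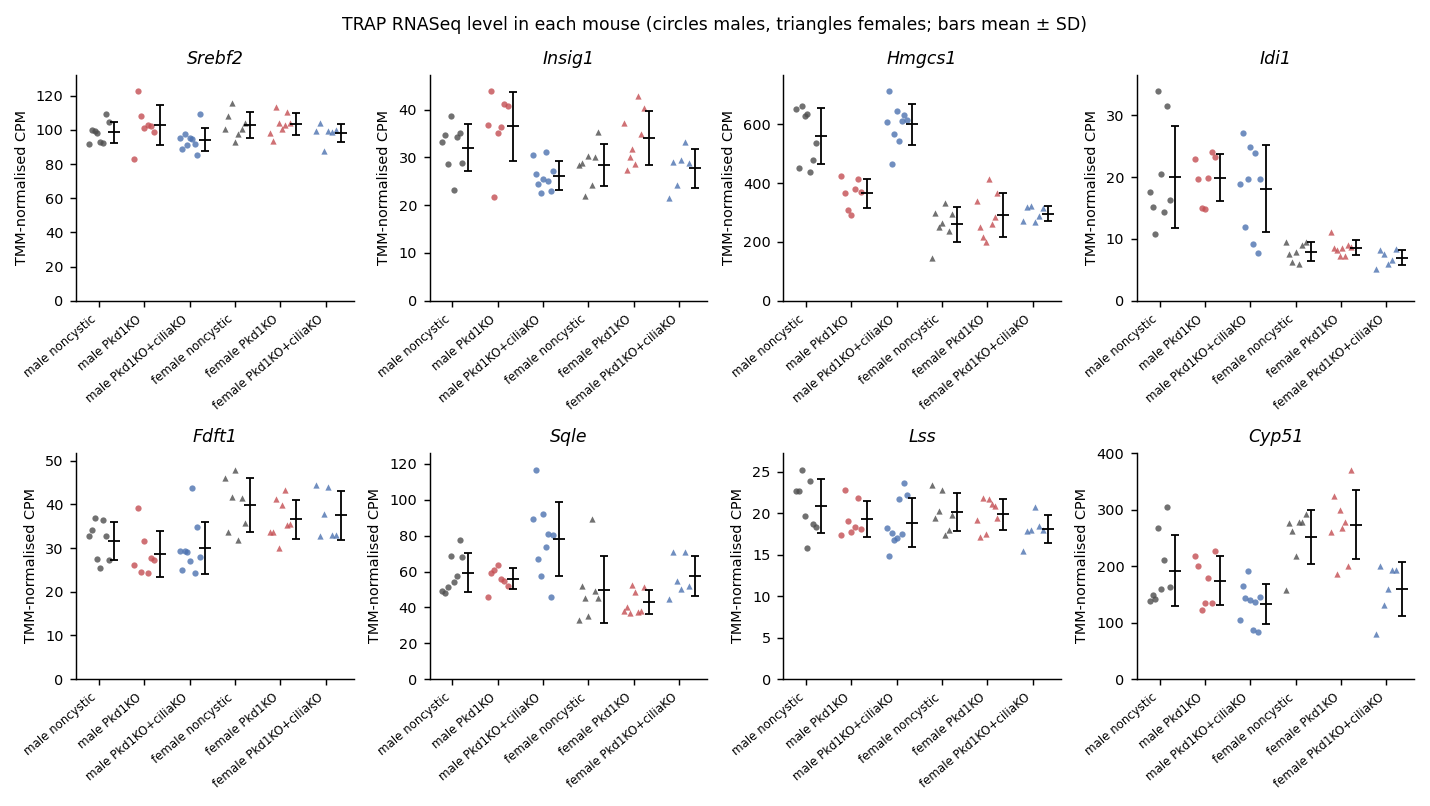
Level of each of the 8 genes in every mouse, as TMM-normalised CPM on a linear axis from 0, by sex and genotype; each point is 1 mouse and the bars are mean ± SD of the group. In males Hmgcs1 lies at 292 to 425 CPM in Pkd1KO, below both other groups, of which the lowest mouse is a noncystic one at 439. Idi1 lies at 5.19 to 11.2 CPM in all 3 female groups.

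Kidneys destined to form cysts (Pkd1KO) were compared with noncystic controls, which keep at least 1 copy of Pkd1, and with Pkd1KO+ciliaKO kidneys. The paper describes the last as protected from cyst growth. A further comparison set Pkd1KO+ciliaKO against noncystic. Each comparison was an edgeR quasi-likelihood test within a sex with Benjamini-Hochberg adjustment over all genes tested. A gene was called at an adjusted p of at most 0.05. In males, Pkd1KO against noncystic called 1 of the 8 genes, Hmgcs1, which fell, where 6.3% of all genes were called and 2.25% fell. Male Pkd1KO against Pkd1KO+ciliaKO called 2, Hmgcs1 lower and Insig1 higher, where 3.77% of all genes were called, 1.99% higher and 1.78% lower. Male Pkd1KO+ciliaKO against noncystic called none of the 8, against 8.89% of all genes. In that comparison 3 of the 8 had an unadjusted p under 0.05 (Insig1, Sqle and Cyp51), DESeq2 called 2 and limma on TPM none. Of all 15991 genes, 3887 had such a p there, DESeq2 called 2157 and limma on log2(TPM + 1) 1197.

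In females, Pkd1KO against noncystic called none of the 8 genes with edgeR, where 3.34% of all genes were called. Only Insig1 of the 8 had an unadjusted p under 0.05 there, and neither DESeq2 nor limma called any. Of all 15968 genes, 2612 had such a p, DESeq2 called 962 and limma on log2(TPM + 1) 517. Female Pkd1KO against Pkd1KO+ciliaKO called 2, Cyp51 higher and Sqle lower, where 11.7% of all genes were called, 7.05% higher and 4.65% lower. Female Pkd1KO+ciliaKO against noncystic called none with edgeR or limma and 1, Cyp51, with DESeq2, where 2.54% of all genes were called by edgeR. Cyp51 was the 1 gene of the 8 with an unadjusted p under 0.05 in that comparison. Of all 15968 genes, 3413 had such a p there, DESeq2 called 1280 and limma on log2(TPM + 1) 1000. The median log2 fold change of the 8 genes was -0.10 in male Pkd1KO against noncystic, 0.08 in male Pkd1KO against Pkd1KO+ciliaKO and 0.10 in female Pkd1KO against Pkd1KO+ciliaKO, where the medians of all genes were -0.01, 0.01 and -0.01. In both comparisons that called 2 members, 1 was higher and 1 lower.

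**Figure D2:**
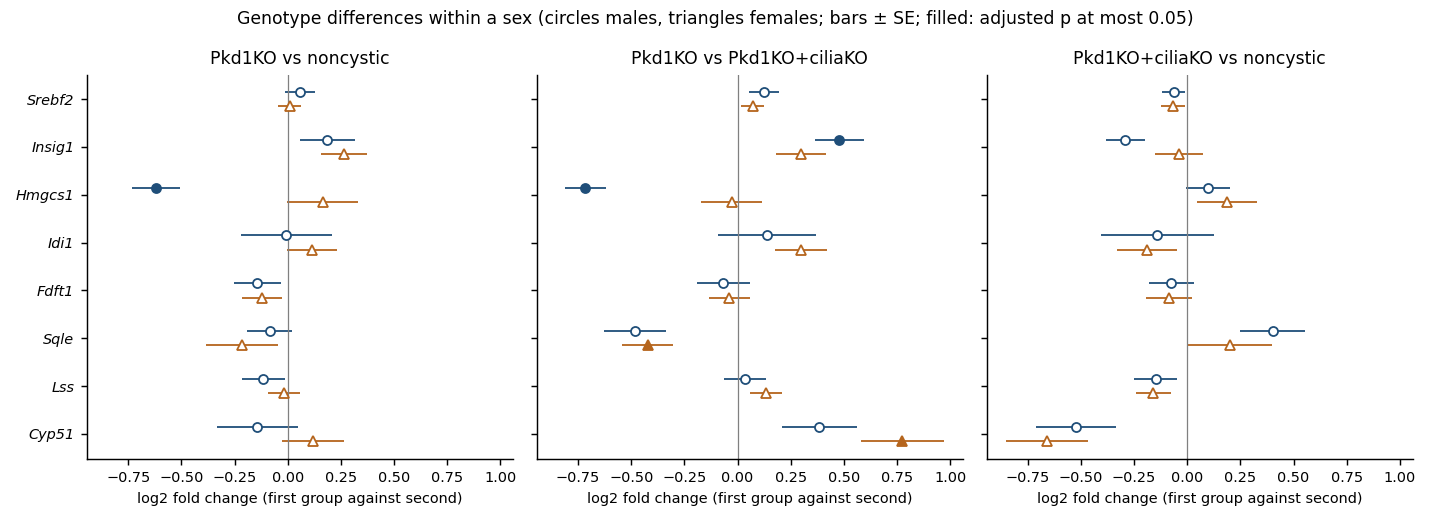
Log2 fold change (± SE) of each of the 8 genes in the 3 genotype comparisons, circles for males and triangles for females, filled where the adjusted p was at most 0.05. Hmgcs1 is filled in males at -0.62 and -0.72 and lies near 0 in females at 0.16 and -0.03.

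Srebf2 (ENSMUSG00000022463.8; chr15:82147181-82205379, plus strand) encodes the precursor of SREBP2. In males its level was 91.7, 99.0 and 109.6 CPM (lowest, median and highest) in noncystic mice, 83.3, 103 and 123 in Pkd1KO, and 85.5, 94.9 and 109 in Pkd1KO+ciliaKO. Female levels were 92.8, 101 and 116 CPM in noncystic mice, 93.7, 103 and 113 in Pkd1KO, and 87.7, 99.7 and 104 in Pkd1KO+ciliaKO. All 6 groups overlapped, and none of the 12 contrasts called it. Its log2 fold changes between genotypes lay between -0.07 and 0.12, with a lowest adjusted p of 0.338 in edgeR's test.

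Insig1 (ENSMUSG00000045294.11; chr5:28071363-28078662, plus strand) encodes the protein that retains the SREBP2 precursor, and is itself a target of SREBP2. Its level in males was 23.3, 33.7 and 38.7 CPM in noncystic mice, 21.7, 36.8 and 43.8 in Pkd1KO, and 22.5, 25.4 and 31.2 in Pkd1KO+ciliaKO. All but 1 of the male Pkd1KO mice were above every male Pkd1KO+ciliaKO mouse, and the exception, Pkd1KO 3, was the lowest of all males. Insig1 was higher in male Pkd1KO than in Pkd1KO+ciliaKO by 0.48 on the log2 scale (SE 0.116, adjusted p = 0.0277). Without the 4 males apart the difference was 0.50 (adjusted p = 0.039), and the call was lost without any 1 of Pkd1KO 2, 6 or 7 or Pkd1KO+ciliaKO 3, with adjusted p up to 0.0589. Against noncystic males, Insig1 stood at 0.19 in Pkd1KO (SE 0.13, adjusted p = 0.431) and at -0.29 in Pkd1KO+ciliaKO (SE 0.092, adjusted p = 0.0544). The last of these was called in 3 of 9 alternative settings, and when noncystic 3 or 5 or Pkd1KO+ciliaKO 1 or 6 was left out.

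In females Insig1 ran at 21.9, 28.8 and 35.4 CPM in noncystic mice, 27.4, 33.3 and 42.8 in Pkd1KO, and 21.6, 28.9 and 33.2 in Pkd1KO+ciliaKO. The female groups overlapped. Pkd1KO stood 0.26 above noncystic (SE 0.11, adjusted p = 0.222) and 0.30 above Pkd1KO+ciliaKO (SE 0.12, adjusted p = 0.104), and neither difference passed the test.

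Hmgcs1 (ENSMUSG00000093930.2; chr13:119690379-119708260, plus strand) encodes the cytosolic HMG-CoA synthase, which joins acetoacetyl-CoA and acetyl-CoA at the start of the mevalonate part. Male levels were 439, 583 and 661 CPM in noncystic mice, 292, 371 and 425 in Pkd1KO, and 464, 611 and 712 in Pkd1KO+ciliaKO. Every male Pkd1KO mouse was below every mouse of both other male groups, whereas noncystic and Pkd1KO+ciliaKO males overlapped. Of all genes, 0.682% were lower without overlap in male Pkd1KO than in noncystic mice, and 0.519% than in Pkd1KO+ciliaKO. The log2 fold change was -0.62 against noncystic (SE 0.112, adjusted p = 0.00309) and -0.72 against Pkd1KO+ciliaKO (SE 0.0948, adjusted p = 0.000251). Both comparisons share the same Pkd1KO mice. Noncystic and Pkd1KO+ciliaKO males differed by 0.10 (SE 0.103, adjusted p = 0.600).

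Hmgcs1 kept both calls in all 9 alternative settings and with any 1 mouse left out. Against noncystic the alternatives ran from -0.64 to -0.53 and the leave-one-out values from -0.66 to -0.57. Without the 4 males apart, the log2 fold change of Hmgcs1 was -0.53 against noncystic (adjusted p = 0.00811) and -0.68 against Pkd1KO+ciliaKO (adjusted p = 0.000623).

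Cell type markers moved in the same male comparisons as Hmgcs1. The summed level of 5 thick ascending limb markers was 2458 to 4653 CPM in noncystic males, 2127 to 3550 in Pkd1KO and 2491 to 4402 in Pkd1KO+ciliaKO. Its medians were 3444, 2225 and 3621 CPM, lowest in Pkd1KO. That of 9 proximal tubule markers was 7395 to 12071, 5033 to 10906 and 5975 to 9630 CPM in the same order, with medians of 10972, 8352 and 7476. Slc12a1 of the thick limb list fell in both comparisons, Kcnj1 fell against Pkd1KO+ciliaKO, Cubn of the proximal list fell against noncystic, and Slc5a2 rose against Pkd1KO+ciliaKO. The 6 macrophage markers summed to 69.6 to 99.0 CPM in noncystic, 95.4 to 360.0 in Pkd1KO and 53.2 to 101 in Pkd1KO+ciliaKO males. The 7 proliferation markers summed to 52.7 to 99.1, 104 to 369.8 and 77.4 to 179 CPM. None of their defining markers was at 0, and their part in the Hmgcs1 result was not tested. The pulldown is directed at tagged ribosomes of tubule cells, which macrophages are not meant to carry. Each library pools the ribosomes of many cells, so that fewer cells of a type and less RNA per cell cannot be told apart.

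In females Hmgcs1 was at 147, 263 and 333 CPM in noncystic mice, 199, 274 and 414 in Pkd1KO, and 267, 301 and 322 in Pkd1KO+ciliaKO. The 3 female groups overlapped, and Pkd1KO stood 0.16 above noncystic (SE 0.17, adjusted p = 0.721) and 0.03 below Pkd1KO+ciliaKO (log2 fold change -0.03, SE 0.14, adjusted p = 0.921). Over 9 alternative settings, which include the fit without the 2 libraries that went against their labels, the value against noncystic ran from 0.11 to 0.23. Whether the fall in males differed from the value in females was tested as an interaction in 1 fit of all 45 mice. The male minus female log2 fold change of Hmgcs1 was -0.78 for Pkd1KO against noncystic (SE 0.19, unadjusted p = 0.00018, adjusted p = 0.156 with edgeR) and -0.69 for Pkd1KO against Pkd1KO+ciliaKO (unadjusted p = 0.00086, adjusted p = 0.160). Adjusted over all genes, neither passed the threshold, and DESeq2 gave adjusted p = 0.0431 for the first and 0.0743 for the second. None of the 8 genes was called in any of the 3 interactions by edgeR, where 0.0126%, 0.221% and 0.0316% of all genes were called. At an unadjusted p under 0.05, Hmgcs1 was the 1 member in each of the first 2 interactions and no member was in the third. DESeq2 called 1, 0 and 0 of the 8. Of all 15828 genes, 1279, 1256 and 869 had such an unadjusted p in the 3 interactions, and DESeq2 called 29, 72 and 21.

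Idi1 (ENSMUSG00000058258.14; chr13:8885501-8892451, plus strand) encodes the isomerase of isopentenyl diphosphate, the building unit of isoprenoids. In males it was at 10.8, 17.0 and 33.9 CPM in noncystic mice, 14.8, 19.8 and 24.0 in Pkd1KO, and 7.65, 19.7 and 27.2 in Pkd1KO+ciliaKO. Within each male group its lowest values were those of the mice that lay apart: noncystic 3 (10.8 CPM) and Pkd1KO 4 (14.8) were the lowest of their groups, and Pkd1KO+ciliaKO 6 and 8 (9.18 and 7.65) were the lowest 2 of theirs. Female levels were 5.93, 7.93 and 9.53 CPM in noncystic mice, 7.26, 8.59 and 11.2 in Pkd1KO, and 5.19, 7.08 and 8.41 in Pkd1KO+ciliaKO. No genotype comparison called Idi1, whose log2 fold changes lay between -0.19 and 0.30 with a lowest adjusted p of 0.126.

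Fdft1 (ENSMUSG00000021273.11; chr14:63145150-63179578, minus strand) encodes squalene synthase, which commits isoprenoids to sterols. Noncystic males had 25.4, 32.9 and 36.9 CPM, Pkd1KO males 24.4, 27.4 and 39.2, and Pkd1KO+ciliaKO males 24.2, 29.1 and 43.7. Noncystic females had 31.9, 41.4 and 48.0 CPM, Pkd1KO females 29.9, 35.4 and 43.3, and Pkd1KO+ciliaKO females 32.7, 35.4 and 44.5. Genotypes overlapped within each sex, with log2 fold changes of Fdft1 between -0.14 and -0.04 and no call. Fdft1 shares 774 exon bases with Ctsb, which lies on the opposite strand and is more abundant, and whether counting used the strand is not given in the sources used here, so that its counts are uncertain.

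Sqle (ENSMUSG00000022351.14; chr15:59315077-59331192, plus strand) encodes squalene epoxidase, which adds oxygen to squalene. Male levels were 48.3, 55.8 and 77.5 CPM in noncystic mice, 46.0, 56.1 and 63.4 in Pkd1KO, and 46.0, 80.7 and 117 in Pkd1KO+ciliaKO. Female levels were 33.0, 45.4 and 89.1 CPM in noncystic mice, 37.1, 39.0 and 52.4 in Pkd1KO, and 44.8, 53.2 and 71.1 in Pkd1KO+ciliaKO. The medians were highest in the Pkd1KO+ciliaKO group of each sex, although every pair of genotypes overlapped. Sqle was lower in female Pkd1KO than in Pkd1KO+ciliaKO, with a log2 fold change of -0.42 (SE 0.120, adjusted p = 0.0329), or -0.45 (adjusted p = 0.0382) without the 2 libraries that went against their labels. This call remained in 7 of 9 alternative settings and in 7 of 14 fits that left out 1 mouse. The male value for the same comparison was -0.48 (SE 0.15, adjusted p = 0.0746), and male Pkd1KO+ciliaKO stood 0.40 above noncystic (SE 0.15, adjusted p = 0.107).

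Lss (ENSMUSG00000033105.12; chr10:76531588-76557138, plus strand) encodes lanosterol synthase, which closes the sterol rings. It was at 15.8, 21.2 and 25.3 CPM in noncystic males, 17.3, 18.3 and 22.8 in Pkd1KO and 14.9, 17.7 and 23.6 in Pkd1KO+ciliaKO. Noncystic females had 17.4, 19.8 and 23.5 CPM, Pkd1KO females 17.1, 20.2 and 21.8, and Pkd1KO+ciliaKO females 15.4, 18.0 and 20.8. All groups overlapped and no contrast called Lss, whose log2 fold changes between genotypes lay between -0.16 and 0.14.

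Cyp51 (ENSMUSG00000001467.5; chr5:4081145-4104746, minus strand) encodes the demethylase that begins the conversion of lanosterol to cholesterol. Female levels were 158, 276 and 291 CPM in noncystic mice, 186, 273 and 371 in Pkd1KO, and 79.8, 176 and 199.98 in Pkd1KO+ciliaKO. Most female Pkd1KO+ciliaKO mice were below most Pkd1KO mice, with an overlap between 186 and 199.98 CPM. Cyp51 was higher in female Pkd1KO than in Pkd1KO+ciliaKO by 0.77 on the log2 scale (SE 0.194, adjusted p = 0.0183), and by 0.84 (adjusted p = 0.0199) without the 2 libraries that went against their labels. It was called in all 9 alternative settings and in 14 of 14 fits that left out 1 mouse. Female Pkd1KO+ciliaKO against noncystic gave -0.66 for Cyp51 (SE 0.19, adjusted p = 0.0734), which 2 of 9 alternatives called. These 9, which include the fit without the 2 libraries, ran from -0.70 to -0.57.

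Male levels of Cyp51 were 139, 161 and 305 CPM in noncystic mice, 123, 179 and 227 in Pkd1KO, and 83.5, 139 and 191 in Pkd1KO+ciliaKO. The male groups overlapped, and the values ran in the same direction without passing the test: 0.38 for Pkd1KO against Pkd1KO+ciliaKO (SE 0.18, adjusted p = 0.235) and -0.52 for Pkd1KO+ciliaKO against noncystic (SE 0.19, adjusted p = 0.0905). The male minus female difference of Cyp51 in Pkd1KO against Pkd1KO+ciliaKO was -0.39 (SE 0.278, adjusted p = 0.756), which the test did not call. Cyp51 shares 166 exon bases with Akap9 on the opposite strand, and the same uncertainty of strand applies. Akap9 stood at 0.15 in female Pkd1KO against Pkd1KO+ciliaKO (adjusted p = 0.133).

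Markers that differ between the sexes in the proximal tubule also moved in the female comparison that called Cyp51 and Sqle. The 8 markers listed as male-biased summed to 5832 to 13907 CPM in female Pkd1KO and 2857 to 7221 in female Pkd1KO+ciliaKO mice. Of the 8, 3 (Kap, Slc22a30 and Hao2) rose in Pkd1KO. Hao2, although on this list, was lower in males than in females of each genotype. The 5 female-biased markers summed to 504 to 1110 and 318 to 648 CPM, and 4 of the 5 rose. The 9 markers of the proximal tubule in general summed to 6495 to 10151 and 6115 to 8408 CPM, with Slc5a2 alone higher. The 5 thick ascending limb markers summed to 2953 to 4655 CPM in Pkd1KO and 3758 to 5366 in Pkd1KO+ciliaKO, with Slc12a1 lower in Pkd1KO. The 4 intercalated cell markers summed to 207 to 309 and 263 to 392 CPM, with Atp6v1g3 lower, and the 6 macrophage markers to 63.6 to 119.9 and 37.8 to 73.2 CPM, with Csf1r higher. The part of these markers in the Cyp51 and Sqle results was not tested.

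Sex was compared within each genotype in the fit of all 45 mice. Males had more Idi1 and Hmgcs1 mRNA on tagged ribosomes than females and less Fdft1. In noncystic mice 3 of the 8 genes were called, 2 higher and 1 lower in males, where 27.4% of all genes were called, 14.1% higher and 13.3% lower. In Pkd1KO mice 3 were called, 1 higher and 2 lower, against 30.6% of all genes, 16.3% higher and 14.3% lower. In Pkd1KO+ciliaKO mice 4 were called, 3 higher and 1 lower, against 19.4%, 11.2% higher and 8.19% lower. The median log2 fold change of the 8 genes, male against female, was 0.11, 0.04 and 0.00 in the 3 genotypes, where those of all genes were -0.03, 0.01 and -0.01.

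Idi1 was higher in males by 1.33 on the log2 scale in noncystic mice (SE 0.217, adjusted p = 7.9e-06), 1.21 in Pkd1KO (SE 0.213, adjusted p = 2.55e-05) and 1.37 in Pkd1KO+ciliaKO (SE 0.226, adjusted p = 1.97e-05). Every male was above every female among noncystic and among Pkd1KO mice, where 3.13% and 3.44% of all genes were higher in males without overlap. Among Pkd1KO+ciliaKO mice the 1 overlap came from male 8, which lay within the female range, and male 6 was the next lowest. Without the 4 males apart the values of Idi1 were 1.42, 1.27 and 1.58, and no single mouse left out changed a call.

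Hmgcs1 was higher in males by 1.11 in noncystic mice (SE 0.136, adjusted p = 3.05e-08) and by 1.02 in Pkd1KO+ciliaKO (SE 0.141, adjusted p = 9.18e-07), without overlap in either. Among Pkd1KO+ciliaKO mice 1.47% of all genes were higher in males without overlap. In Pkd1KO, where male Hmgcs1 was lowest, the difference was 0.33 (SE 0.134, adjusted p = 0.0579) and the sexes overlapped. It was called by DESeq2 (adjusted p = 0.0429) and without the 4 males apart (0.37, adjusted p = 0.0341), so that its side of the threshold depended on the setting.

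Fdft1 was lower in males in all 3 genotypes, at -0.33 in noncystic mice (SE 0.11, adjusted p = 0.0256), -0.35 in Pkd1KO (adjusted p = 0.0177) and -0.32 in Pkd1KO+ciliaKO (adjusted p = 0.0452). The sexes overlapped each time, and the call in noncystic mice was lost without any 1 of male noncystic 4, 5 or 8 or female noncystic 1 or 4. The call of Fdft1 in Pkd1KO+ciliaKO remained in 4 of 5 alternative settings and in 35 of 45 fits that left out 1 mouse. Ctsb, the overlapping gene, gave -0.05, 0.03 and -0.08 in the same contrasts, none of them called. Cyp51 was lower in males among Pkd1KO mice, at -0.65 (SE 0.20, adjusted p = 0.00987), and stood at -0.39 in noncystic mice (adjusted p = 0.129) and -0.26 in Pkd1KO+ciliaKO (adjusted p = 0.381).

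Sqle was higher in Pkd1KO+ciliaKO males by 0.45 (SE 0.16, adjusted p = 0.0479) and stood at 0.39 in Pkd1KO (SE 0.16, adjusted p = 0.0605) and 0.25 in noncystic mice (adjusted p = 0.252). The Pkd1KO+ciliaKO call remained in 23 of 45 fits that left out 1 mouse. In noncystic mice the value of Sqle moved to 0.45 (adjusted p = 0.0193) without the 2 libraries that went against their labels, since the library labelled female noncystic 5 had 89.1 CPM where the next female had 51.9. No contrast of the sexes called Srebf2, Insig1 or Lss.

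The marker lists moved with sex as well. Of 8 male-biased proximal tubule markers, 7 rose and Hao2 fell in males of each genotype, with sums of 3475 to 35594 CPM in males and 2857 to 14008 in females. All 5 female-biased markers fell in males of each genotype, with sums of 35.0 to 298 CPM in males and 318 to 1110 in females. Among the males apart, Pkd1KO+ciliaKO 6 and 8 and noncystic 3 had the lowest male-biased sums of all males (3475, 3722 and 7919 CPM) and Pkd1KO 4 had 14818. No marker of either list was at 0, and the part of these markers in the Idi1, Hmgcs1 and Fdft1 results was not tested.

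**Figure D3:**
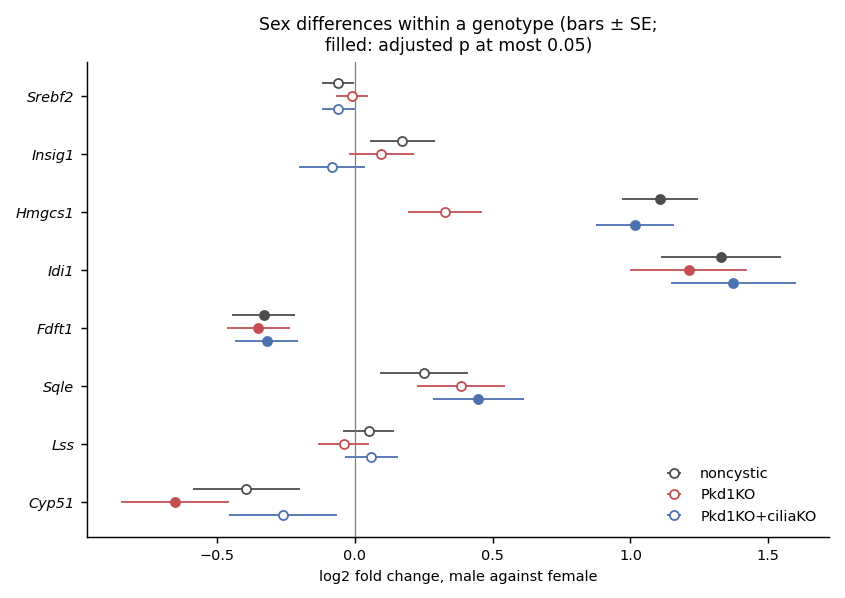
Log2 fold change, male against female (± SE), of each of the 8 genes in the 3 genotypes, filled where the adjusted p was at most 0.05. Idi1 is filled in all 3 genotypes at 1.21 to 1.37, Hmgcs1 in noncystic and Pkd1KO+ciliaKO mice at 1.11 and 1.02, and Fdft1 lies below 0 in all 3.

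The other genes of the pathway were followed as 47 genes in 9 lists, all of them tested in both sexes. In males, Pkd1KO against noncystic called 1 of the 47 (2.13%, against 6.3% of all genes), which was Acly, a source of cytosolic acetyl-CoA, lower by edgeR's test (-0.35, adjusted p = 0.00773). Acly kept this call in all 9 alternative settings and all 15 fits that left out 1 mouse. Male Pkd1KO against Pkd1KO+ciliaKO also called 1 (2.13%, against 3.77%), Pmvk, a kinase of the mevalonate part, which was higher (0.25, adjusted p = 0.0454). That call of Pmvk remained in 4 of 9 alternative settings and in 6 of 16 fits that left out 1 mouse. Male Pkd1KO+ciliaKO against noncystic called 3 (6.38%, against 8.89%), with Stard4, a sterol carrier, higher (0.27) and Pmvk and Tm7sf2 lower (-0.22 and -0.39). Of 17 fits that left out 1 mouse, 10 called Stard4, 4 Pmvk and 15 Tm7sf2, and the counts ran from 0 to 2 higher and 0 to 7 lower.

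Female Pkd1KO mice had higher levels than female Pkd1KO+ciliaKO mice of 13 of these 47 genes and lower levels of none, where 7.05% of all genes were higher and 4.65% lower. The interaction of this comparison with sex called 0 of the 47, where 0.221% of all genes were called. In females the median of the 47 was 0.12, against -0.01 over all genes. Among 6 enzymes of the mevalonate part, 3 rose: Mvd (0.50), Mvk (0.29) and Acat2 (0.26). Of 8 enzymes after lanosterol, Ebp (0.39) and Nsdhl (0.29) rose, as did Scap (0.28) and Mbtps1 (0.21), the escort and the first protease of SREBP2, among 5 processing genes. The other 6 were Nr1h3 (0.40), which encodes a sterol-sensing nuclear receptor, 1 of 6 efflux genes, Soat1 (0.65), a cholesterol esterifying enzyme, 1 of 2, the desaturases Fads1 (0.39), Fads2 (0.45) and Scd1 (0.82) of 10 fatty acid genes, and Bdh1 (1.04), which interconverts ketone bodies, 1 of 2. None of 5 uptake and 3 degradation genes was called.

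The size of that count depended on the setting more than its direction did. DESeq2 called 14 higher and none lower, 1 fit of all 45 mice 11 and none, and the fit without the 2 libraries that went against their labels 11 and none, whereas limma on log2 TPM called 7 higher and 4 lower. Over all genes the main test called 1126 higher and 743 lower. The other settings called 1487 and 1020, 905 and 539, and 1014 and 647 in the same order. Over all genes limma called more lower than higher, 584 higher and 1583 lower on log2(TPM + 1), and 587 and 1518 on log2(TPM + 0.1). Leaving out 1 mouse gave 7 to 13 higher and 0 to 1 lower, with 7 without female Pkd1KO+ciliaKO 3. The libraries of these female groups are the same as in the comparison that called Cyp51 and Sqle, and the marker sums given for it apply here too. Female Pkd1KO against noncystic called Nsdhl higher (0.27) and Tm7sf2 lower (-0.38), 4.26% of the 47 against 3.34% of all genes. Of 15 fits that left out 1 mouse, 9 called Nsdhl and 5 Tm7sf2. Female Pkd1KO+ciliaKO against noncystic called 4, all lower: Acat2 (-0.29), Pmvk (-0.31), Nr1h3 (-0.48) and Bdh1 (-0.75), where 1.87% of all genes were lower. Leaving out 1 mouse gave 0 to 6 lower, and of the 13 such fits 6 called Acat2, 3 Pmvk, 6 Nr1h3 and 10 Bdh1. Of 9 alternative settings, which include the fit without the 2 libraries, 5 called Acat2, 5 Pmvk, 5 Nr1h3 and 9 Bdh1. Without the 2 libraries, 926 of all genes were called in this comparison rather than 405.

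**Figure D4:**
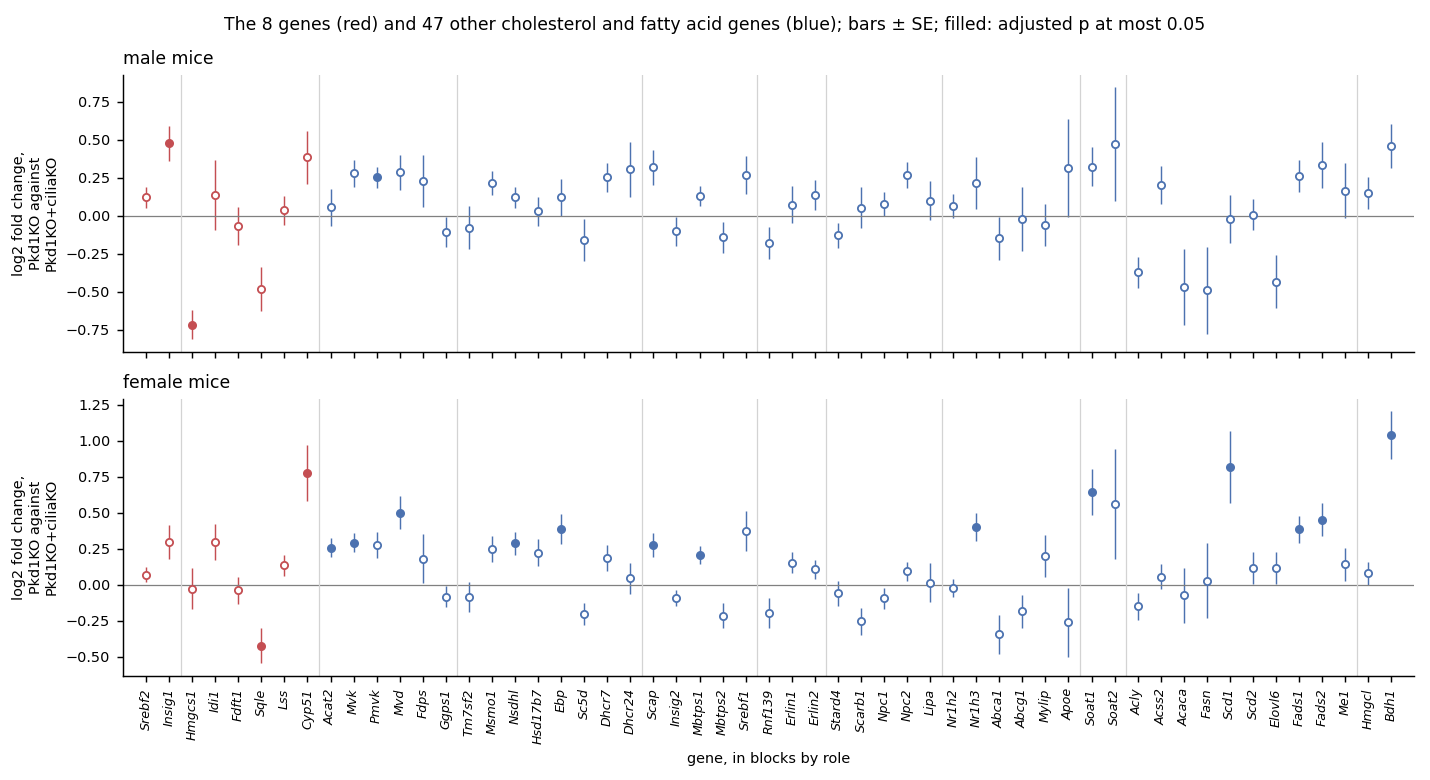
Log2 fold change (± SE) of the 8 genes (red) and the 47 other pathway genes (blue) in Pkd1KO against Pkd1KO+ciliaKO, males above and females below, in blocks by list and filled where the adjusted p was at most 0.05. In females 13 of the 47 blue points are filled and all of these lie above 0, whereas in males 1 is filled. The interaction of this comparison with sex called 0 of the 47.

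Between the sexes, 18 of the 47 pathway genes were called in noncystic mice (10 higher and 8 lower in males), 15 in Pkd1KO (8 and 7) and 12 in Pkd1KO+ciliaKO (8 and 4). These are 38.3%, 31.9% and 25.5% of the 47, against 27.4%, 30.6% and 19.4% of all genes. Mvd, which makes isopentenyl diphosphate, was higher in males in all 3 genotypes (0.56, 0.50 and 0.72), as were Scap (0.38, 0.38 and 0.34), Acss2 (1.15, 1.14 and 1.00), which makes acetyl-CoA from acetate, and Me1 (1.14, 1.01 and 0.98), a source of NADPH. Elovl6, which lengthens fatty acids, was lower in males in all 3 (-1.76, -1.70 and -1.15). Fdps, the enzyme between Idi1 and Fdft1, was counted at 0.315 to 1.02 CPM in every mouse, far below the lowest CPM of Idi1 or Fdft1. Whether this low count reflects the level of Fdps mRNA or the way fragments were assigned to genes was not tested.

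Whether the 8 genes varied together from mouse to mouse was examined after removal of each group's mean, over all 45 mice and 28 pairs, on log2 CPM. The median Pearson r was 0.10, and 19 of the 28 pairs were positive. By a permutation test with Benjamini-Hochberg adjustment over the 28 pairs, 7 pairs passed the threshold, 3 of them positive and 4 negative. Fdft1 and Lss had the highest r at 0.66 (permutation p = 1e-05, the smallest that 100000 permutations can give, adjusted p = 0.00028), with Spearman's rho at 0.61 (permutation p = 4e-05) and r at 0.62 without the 2 mice farthest from the median. Within the 6 groups the r of Fdft1 and Lss ran from -0.08 to 0.89 and was positive in 5.

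Idi1 and Cyp51 had r = 0.54 (permutation p = 0.00028, adjusted p = 0.00392), rho = 0.49 (permutation p = 0.00167) and r = 0.46 without the 2 farthest mice, within groups from -0.36 to 0.79. Sqle and Cyp51 had r = 0.46 (permutation p = 0.00204, adjusted p = 0.0144), rho = 0.44 (permutation p = 0.00434) and r = 0.44 without the 2 farthest, within groups from -0.68 to 0.85. The 4 negative pairs each joined Fdft1 or Lss to Idi1, Sqle or Cyp51. Fdft1 and Sqle had r = -0.48 (permutation p = 0.00206, adjusted p = 0.0144), with rho = -0.53 (permutation p = 0.00056) and r = -0.58 without the 2 farthest. Idi1 and Fdft1 had r = -0.47 (permutation p = 0.00309, adjusted p = 0.0173), rho = -0.42 (permutation p = 0.00758) and r = -0.34 without the 2 farthest. Fdft1 and Cyp51 had r = -0.43 (permutation p = 0.00644, adjusted p = 0.0258), rho = -0.41 (permutation p = 0.00858) and r = -0.45 without the 2 farthest. Sqle and Lss had r = -0.44 (permutation p = 0.00582, adjusted p = 0.0258) and r = -0.32 without the 2 farthest, but a rho of -0.35 (permutation p = 0.03) that did not pass after adjustment (adjusted p = 0.0823). Within the 6 groups the negative pairs were positive in 1 or 2 groups each. Without the 4 males apart, 2 pairs passed, 1 positive and 1 negative, and Idi1 with Cyp51 fell to r = 0.38. Srebf2 and Insig1, the factor and its regulator, had r = 0.08 (permutation p = 0.658). Ctsb, which overlaps Fdft1, had r = -0.19 with it (permutation p = 0.251), with rho = -0.13 (permutation p = 0.426) and r = -0.07 without the 2 farthest mice.

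**Figure D5:**
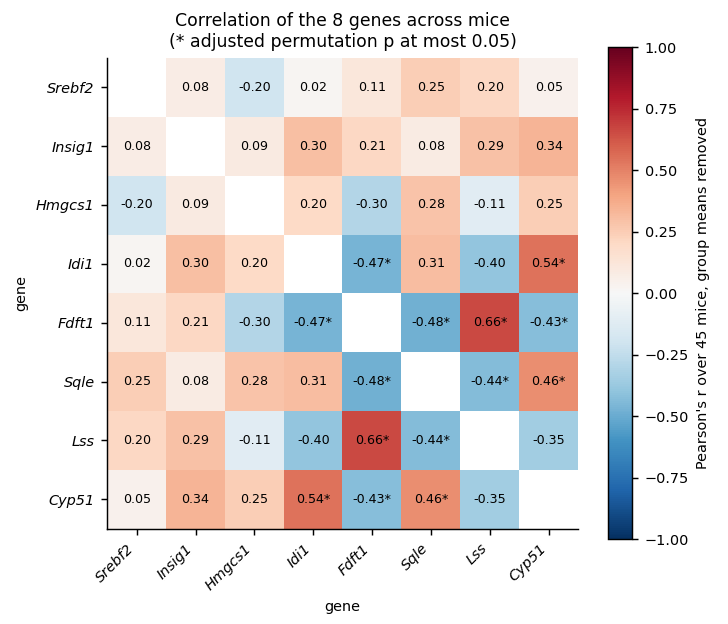
Pearson's r for each pair of the 8 genes over 45 mice, on log2 CPM with group means removed; an asterisk marks an adjusted permutation p of at most 0.05. Fdft1 and Lss are positive with each other at 0.66 and negative with Idi1, Sqle and Cyp51.

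Outside the 8 genes and the pathway lists, the 5 genes whose mouse-to-mouse pattern was most like the mean of the 8, among 12656 genes over the same 45 mice and group means removed, were Spats2l (r = 0.759), Scamp2 (0.726), Slc11a2 (0.723), Arhgef39 (0.714) and St8sia6 (0.710). Of the listed pathway genes Msmo1 (0.727), which acts after Cyp51 and whose r lay between those of Spats2l and Scamp2, Dhcr7 (0.664), of the last step to cholesterol, and Mvd (0.630) were the most like it. These values are a description, since all genes come from the same libraries. The mean was taken over log2 CPM without scaling each gene to equal spread, so that genes that varied more weighed more in it. Among the 8, the SD within a group reached at most 41.6% of the group mean for Idi1, the highest, and 11.4% for Srebf2, the lowest. The members' own r with their mean, which includes them, was 0.76 for Cyp51, 0.68 for Idi1, 0.65 for Insig1, 0.56 for Sqle, 0.45 for Hmgcs1, 0.23 for Srebf2, -0.06 for Lss and -0.20 for Fdft1.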

How the data were processed

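The authors extracted ribosome-bound RNA from 45 kidneys, trimmed reads with fastp 0.20.0, aligned them to GRCm38.p6 with STAR 2.7.9, counted fragments with featureCounts 2.0.0, and deposited per sex a table of raw counts per gene and a table of TPM of protein-coding genes. The TPM tables were normalised separately by the authors. All libraries were sequenced in 1 batch. Symbols and coordinates were taken from GENCODE for GRCm38. A protein-coding gene entered a test when 20% or more of that sex's libraries had 6 or more counts (15991 in males, 15968 in females, 15828 for sex contrasts), and edgeR 4.0.16 (TMM, quasi-likelihood) was run in R 4.3.3 and checked on simulated data. No 2 replicates agreed within sampling noise.

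Alternatives were DESeq2 1.42.0, RLE size factors, no low-count filter, every annotated gene, a replicate block, 1 fit of all mice, limma 3.58.1 on log2(TPM + 1) and log2(TPM + 0.1), and libraries left out. Correlations used log2(CPM + 0.1). The genes named are the 8 members, Kif3a, Pkd1 and overlapping genes. Also named are the genes of the 9 pathway lists that were called and those most like the mean of the members. Single libraries and Fdps were singled out after their values were seen. The members and lists were chosen with earlier results of these data known. Some genes of these lists are not reported here.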

Additional observations from a re-analysis of the deposited data

Results flagged for a closer look

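In 5 of the 48 sets of values (8 genes in 6 groups) the highest or lowest mouse stood apart from the rest of its group by Dixon's test at the 95% level. Chance alone marks about 1 group in 20 by this test. Sqle in the library labelled female noncystic 5, which also went against its label in Kif3a, was at 89.1 CPM where the next mouse had 51.9. Insig1 in male Pkd1KO 3 was at 21.7 CPM where the next had 35.0. Idi1 in female Pkd1KO 1 was at 11.2 CPM where the next had 9.03. Srebf2 in male Pkd1KO+ciliaKO 9 was at 109.3 CPM where the next had 97.4, and Srebf2 in female Pkd1KO+ciliaKO 3 was at 87.7 CPM where the next had 98.9.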

How the results depend on the processing

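The number of the 8 genes called moved with the setting in 8 of the 12 contrasts. Male Pkd1KO against Pkd1KO+ciliaKO called 2, but 1 with limma on log2(TPM + 1), 1 with the replicate block, 3 with DESeq2, in the fit of all mice and without the males apart, and 1 to 3 with 1 mouse left out. Over all 15991 genes it called 603, but 567 with that limma, 170 with the block, 1234 with DESeq2 and 628 without the males apart. The fit of all mice called 1651 of 15828 genes. Male Pkd1KO+ciliaKO against noncystic called 0, but 2 with DESeq2, 1 with RLE, 1 in the fit of all mice and 2 without the males apart, and 0 to 1 with 1 mouse left out. The all-gene count there was 1422, but 2157, 1438, 1957 and 2240 in these 4 settings in that order. Female Pkd1KO against Pkd1KO+ciliaKO called 2, but 1 with the replicate block and 1 in the fit of all mice, and 1 to 2 with 1 mouse left out. Its all-gene count was 1869, but 612 with the block and 1444 in the fit of all mice. Female Pkd1KO+ciliaKO against noncystic called 0, but 1 with DESeq2, 1 with the replicate block and 0 to 1 with 1 mouse left out. Its all-gene count was 405, but 1280 with DESeq2 and 100 with the block. Between the sexes, noncystic mice called 3, but 4 without the 2 libraries that went against their labels and 2 to 4 with 1 mouse left out, Pkd1KO called 3, but 5 with DESeq2, 4 with the replicate block, without the males apart or without the 2 libraries, and 3 to 5 with 1 mouse left out, and Pkd1KO+ciliaKO called 4, but 2 with the replicate block and 2 to 4 with 1 mouse left out. The all-gene count of noncystic mice was 4334, and 3873 without the 2 libraries. That of Pkd1KO was 4844, but 5079 with DESeq2, 4310 with the block, 5375 without the males apart and 4740 without the 2 libraries. For Pkd1KO+ciliaKO it was 3064, and 2646 with the block. The interaction of Pkd1KO against noncystic with sex called 0, but 1 with DESeq2 and 0 to 1 with 1 mouse left out. Over all genes it called 2, but 29 with DESeq2. Correlated pairs numbered 7, and 2 without the males apart. The cause was not tested.

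With the replicate block, Insig1 in male Pkd1KO against Pkd1KO+ciliaKO had 0.44 (adjusted p = 0.098), Sqle in the female comparison -0.44 (adjusted p = 0.0622), and the pathway count there was 6 rather than 13. Over all genes the block called 612 in that female comparison rather than 1869. Between the deviations of same-numbered mice of 2 groups, the median r ran from -0.08 to 0.11 and the highest single r was 0.36. Of 6 to 8 numbers, 1 to 3 had r over 0.1. Whether the numbers stand for a shared factor was not tested. Small values that were not called changed sign. Among them, Srebf2 in male Pkd1KO against Pkd1KO+ciliaKO was -0.0060 and -0.0063 with limma on TPM with pseudocounts of 1 and 0.1. Idi1 without the males apart was -0.013 there, and with 1 mouse left out -0.23 to 0.0029 in male Pkd1KO+ciliaKO against noncystic and -0.21 to 0.033 in the interaction of Pkd1KO against noncystic. Sqle in that interaction was -0.069 without the 2 libraries that went against their labels and -0.069 to 0.21 with 1 mouse left out, and in that of Pkd1KO+ciliaKO against noncystic -0.032 and -0.0057 to 0.28. Lss without the males apart was 0.0044 in the interaction of Pkd1KO against Pkd1KO+ciliaKO, and Cyp51 with 1 mouse left out ran from -0.0049 to 0.26 in that of Pkd1KO+ciliaKO against noncystic. Over the 96 values of the 8 genes in the 12 contrasts, 42 of 672 alternative values had the other sign and 23 ranges with 1 mouse left out crossed 0. None of the values that changed sign was called, and the largest of them was 0.20 in size. All-gene counts moved by over 1.5 times in several settings, as from 1008 to 1640 with DESeq2 in male Pkd1KO against noncystic, from 1422 to 2240 without the males apart in male Pkd1KO+ciliaKO against noncystic, and from 405 to 926 without the 2 libraries in female Pkd1KO+ciliaKO against noncystic. Whether group size or the counting strand affected Fdft1 and Cyp51 was not tested.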
